A study of Mus musculus with 21 samples.

Results

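The regions described here are the stretches of wild-type H3K36me3 that were still inside peaks of knockout line 1 in the absence of methionine restriction. H3K36me3, trimethylation of lysine 36 of histone H3, was mapped by ChIP-seq in C2C12 cells, an established mouse myoblast line that differentiates into myotubes. The wild-type (WT) line was sampled at day 0 (D0) and, in control medium (CTL) or under methionine restriction (MR), at day 1 (D1) and day 5 (D5), with 2 libraries in each of 5 groups. Setd2 knockout lines KO_1 and KO_2 were sampled under the same 5 conditions with 1 library each, so 20 peak lists were available, and each knockout line stands for itself. A kept region was an interval of at least 500 bp on chromosomes 1 to 19 that lay inside peaks of all 4 WT lists of D0 and D1_CTL and of both KO_1_D0 and KO_1_D1_CTL. This gave 3090 kept regions covering 4.21 Mb, out of 42714 regions of at least 500 bp, covering 96.2 Mb, that the 4 WT lists had in common (WT-common regions). The kept regions were therefore chosen by their presence in those 6 lists, and their values in those lists are given as description only.

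Setd2 is the main enzyme that trimethylates H3K36, and it does so while travelling with elongating RNA polymerase II, so the mark lies over the bodies of transcribed genes and is usually denser towards their 3′ ends. Methyl groups come from S-adenosylmethionine, which cells make from methionine. Nsd and Ash1l enzymes place the mono- and dimethyl forms, and demethylases of the Kdm2 and Kdm4 families remove methyl groups from H3K36.

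The peak lists differed greatly in length, and this touches every count below. WT lists held 63423 to 87398 peaks covering 108 to 181 Mb, KO_1 lists 791 to 64530 peaks covering 0.302 to 73.2 Mb, and KO_2 lists 127 to 13880 peaks covering 0.00782 to 7.06 Mb. The shortest KO_1 list was that of D1_MR. Over the Setd2 gene body, peaks covered 45.6% to 82.8% in the WT libraries. In KO_1 they covered 3.16% at D0, 2.07% in D1_CTL, 0% in D1_MR, 24.0% in D5_CTL and 2.67% in D5_MR, and in KO_2 they covered 0% in every library. Peak cover does not show whether the edited gene still makes protein. Of the myoblast markers, 6 of 7 had a mean WT cover of at least 5%, with Cdh15 at 68.3% to 96.7% and Itga7 at 73.5% to 95.5% across WT libraries. Myod1 had 50.1% to 78.4% in the 6 WT libraries without restriction and 0% in the 4 WT libraries under restriction and in every KO_1 library. Cdh15 and Des had 82.3% to 96.7% and 83.9% to 89.1% in the 6 unrestricted WT libraries. Both were at 0% in KO_1_D0, and they were at 39.1% and 49.6% in KO_1_D5_CTL. Itga7 had 10.3% in KO_1_D0, 68.4% in KO_1_D5_CTL and 59.2% in KO_1_D5_MR. Vcam1 had 7.17% in KO_1_D0, against 62.1% and 39.1% in WT_D0. At day 5 Vcam1 went the other way, with 17.3% in KO_1_D5_CTL and 24.2% in KO_1_D5_MR, above every WT day 5 library. The part of these differences in the results on kept regions was not tested. Endothelial Pecam1, Cdh5, Kdr, Tek and Tie1 and epithelial Epcam, Krt8, Krt18 and Cldn4 were at 0% in every WT library, while epithelial Krt19 had 16.5% to 39.3% in the unrestricted WT libraries and at most 6.18% in the restricted ones. Among leukocyte markers Ptprc, Adgre1 and Itgam were at 0% in every WT library, while Csf1r ranged from 5.96% to 14.1%, Cd74 from 0% to 24.1% and Cd68 from 0% to 100%.

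Among the sequences inside kept regions were 32 microRNA hairpins of the 919 listed by RefSeq (GRCm38.p6) on these chromosomes, against 260 inside WT-common regions. The 3p microRNAs that the table gives for the paralogous Mir23a/Mir27a/Mir24-2 and Mir23b/Mir27b/Mir24-1 clusters are shown because both clusters lay in kept regions, the first in a 3260-bp region of chromosome 8 with no protein-coding host and the second in an 8435-bp region of chromosome 13 within Aopep, an aminopeptidase gene. One microRNA each of Mir29b-1 (chromosome 6) and Mir31 (chromosome 4), in kept regions of their own, is added. Capitals mark the seed, bases 2 to 8, which directs target choice.
miR-23a-3p: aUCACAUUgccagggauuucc
miR-27a-3p: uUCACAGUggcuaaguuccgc
miR-27b-3p: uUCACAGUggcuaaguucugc
miR-24-3p: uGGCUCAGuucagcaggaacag
miR-29b-3p: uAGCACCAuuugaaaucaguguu
miR-31-5p: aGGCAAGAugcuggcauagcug
The seeds of miR-27a-3p and miR-27b-3p were the same, and miR-24-3p was encoded in both clusters. The chromosome 8 cluster region was covered to 100% in both KO_1 D5 lists and both WT_D5_CTL lists, but to 0% and 10.2% in WT_D5_MR and 0% in both WT_D1_MR lists, and it lies in a stretch of that chromosome where KO_1 peaks were dense. The chromosome 13 cluster region was covered to 100% in KO_1_D5_CTL and to 91.6% in KO_1_D5_MR. The regions with Mir29b-1, whose products target collagen transcripts, and with Mir31 were covered to 100% in KO_1_D5_CTL and to 100% and 99.6% in KO_1_D5_MR. In WT_D5_MR the chromosome 13 region had 90.5% and 93.4%, the Mir29b-1 region 0% and 83.7%, and the Mir31 region 88.5% and 100%. None of these 4 regions was touched in KO_1_D1_MR.

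The promoter windows of RefSeq, 300 bases from 250 before to 50 after each listed start, lay almost wholly outside the kept regions: 9 of 31396 windows were inside one, against 391 inside WT-common regions. The promoters of 3 host genes are shown because these genes held the most kept bases that were absent from both KO_1 D5 lists. They are Cdk1, the mitotic kinase (GRCm38.p6, chr10:69352863-69353162, minus strand), Top2a, the topoisomerase that untangles replicated chromosomes (chr11:99024140-99024439, minus strand), and Mki67, which coats mitotic chromosomes (chr7:135716330-135716629, minus strand). Capitals mark CCAAT boxes and TTTGAA or TTCGAA elements (the cell cycle genes homology region), each on either strand.
Cdk1: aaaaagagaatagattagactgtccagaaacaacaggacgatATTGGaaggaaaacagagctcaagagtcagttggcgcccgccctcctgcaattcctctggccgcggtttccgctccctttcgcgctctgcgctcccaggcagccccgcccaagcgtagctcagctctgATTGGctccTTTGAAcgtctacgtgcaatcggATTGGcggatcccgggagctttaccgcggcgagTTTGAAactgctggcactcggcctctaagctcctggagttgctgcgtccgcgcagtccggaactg
Top2a: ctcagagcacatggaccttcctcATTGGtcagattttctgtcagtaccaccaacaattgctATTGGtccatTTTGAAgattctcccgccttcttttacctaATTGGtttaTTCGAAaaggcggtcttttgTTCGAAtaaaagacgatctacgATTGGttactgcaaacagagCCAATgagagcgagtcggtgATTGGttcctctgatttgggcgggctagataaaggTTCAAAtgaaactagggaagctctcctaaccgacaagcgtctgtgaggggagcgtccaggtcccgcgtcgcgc
Mki67: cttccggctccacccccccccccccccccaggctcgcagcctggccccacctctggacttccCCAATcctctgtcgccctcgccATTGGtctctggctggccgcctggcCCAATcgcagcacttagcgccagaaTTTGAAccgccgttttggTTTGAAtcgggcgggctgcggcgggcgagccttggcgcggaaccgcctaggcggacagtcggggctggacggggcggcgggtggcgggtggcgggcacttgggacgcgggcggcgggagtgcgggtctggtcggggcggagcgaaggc
CCAAT was present in 37.3% of all windows, in 37.6% of the windows of host genes and in 30 of 37 windows (81.1%) of the genes whose kept regions were all absent from both KO_1 D5 lists. TTTGAA or TTCGAA was present in 18.9%, 13.4% and 43.2% of these windows. The motifs were chosen after the genes had been seen, and a match is a description of the letters only.

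Kept regions were short pieces of long WT domains. Their lengths ran from 500 to 27670 bp, with a median of 897 bp and quartiles of 638 and 1452 bp, and 80 were at least 5 kb long. They lay in 1878 WT-common regions (4.40%), whose median length was 6143 bp against 1239 bp for all WT-common regions, and took up 4.38% of the WT-common bases. The merged peak around a kept region had a median length of 18.5 and 13.5 kb in the WT_D0 libraries, and of 1.83 kb in KO_1_D0 and 1.24 kb in KO_1_D1_CTL. In KO_1_D5_CTL the median was 8.90 kb. The longest kept interval was 27670 bp long (GRCm38, chr15:77760272-77787941) and lay mostly, but not wholly, within Myh9, the gene of nonmuscle myosin heavy chain IIA. The next intervals, each named by the gene that held most of it, were 19692 bp long at Plec, 17980 bp at Top2a and 16712 bp at Sparc. Plec encodes the cytoskeletal linker plectin and Sparc a matrix glycoprotein, and the Plec interval also reached past the gene. At the length limit, the 316 regions of 500 to 549 bp just inside it were present at 91.5% in KO_1_D5_CTL and 64.2% in KO_1_D5_MR, and the 363 intervals of 450 to 499 bp, which were left out, at 92.6% and 70.0%.

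The fold enrichment that the authors' lists give each WT peak (ChIP over background) was high over the kept regions. Kept regions sat in peaks with a median fold enrichment of 4.96 and 5.50 in the WT_D0 libraries and 4.34 and 4.34 in WT_D1_CTL, against 2.81, 3.20, 2.95 and 2.87 for all peaks of those lists. As a percentile within its own list, averaged over the 4 lists, the median kept region stood at 97.8, and 2617 (84.7%) stood at 90 or above. The share of WT-common regions that held a kept region was 0.585% among the 10% of lowest fold enrichment and 29.0% among the 10% of highest. The latter regions were longer, with a median of 5249 bp against 707 bp, and by bases the shares kept were 0.617% and 11.6%. High enrichment alone did not mark them, since 6992 of the 8466 WT-common regions at the 90th percentile or above held none. These lists were used by the rule. In WT libraries that it did not use, the kept regions' peaks had a median percentile of 93.5 and 90.3 in D1_MR, 98.0 and 97.7 in D5_CTL and 93.4 and 93.6 in D5_MR. The medians for the other WT-common regions were 76.1 and 71.2, 82.7 and 80.3, and 81.2 and 82.3.

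**Figure D1:**
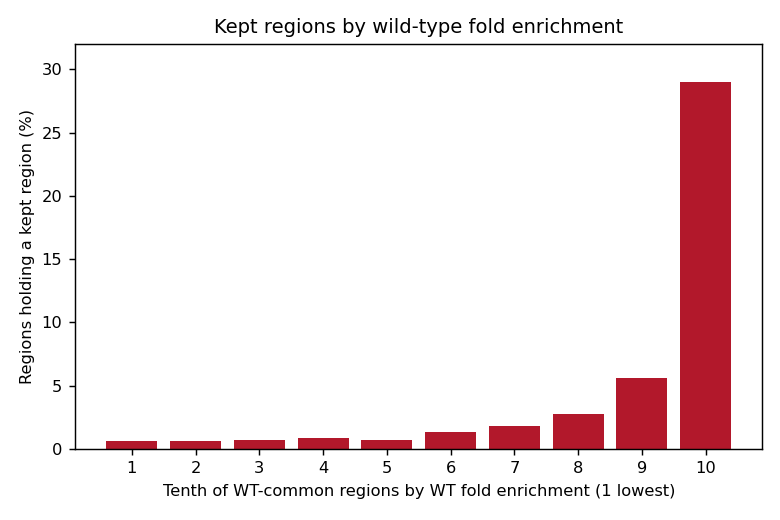
Percent of WT-common regions that hold a kept region (y axis), in 10 equal groups of WT-common regions ranked on mean WT fold enrichment percentile (x axis, 1 lowest). The bars run from 0.585% in group 1, with a median region length of 707 bp, to 29.0% in group 10, with 5249 bp. The rule used these lists, so the bars are a description.

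A protein-coding host, meaning a gene that holds at least 50% of the interval, was found for 2971 kept regions (96.1%), and 49 overlapped no gene. The hosts were 1302 genes, or 16.1% of the 8074 protein-coding genes that hosted a WT-common region. Of these, 672 hosted 1 kept region and 29 hosted 10 or more, up to 23 in Lrp1, a large endocytic receptor. Kept bases were concentrated, with 180 genes holding the first 50% of them. Fn1, encoding fibronectin, held most, at 59.8 kb or 88.1% of its body. It was followed by Col5a1 with 39.9 kb, Myh9 with 38.6 kb and Hspg2, the gene of the basement membrane proteoglycan perlecan, with 33.2 kb. In all, 309 host genes overlapped another protein-coding gene, where the mark cannot be assigned to one of them.

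The gene groups differed widely in how many of their members were hosts, and are read beside the 16.1% over all genes. The share was highest for cytosolic chaperones, where 19 of 20 genes with a WT-common region hosted a kept region. Actin and cytoskeleton genes followed with 36 of 41 and cytosolic ribosomal protein genes with 34 of 41. SR and hnRNP splicing factors had 28 of 37, translation factors and glycolytic genes 19 of 31 and 8 of 13, and extracellular matrix genes 19 of 36. Amino acid transport and ATF4 response genes had 6 of 27. Of the genes listed as H3K36 methyltransferases and demethylases (H3K36 enzymes below) 4 of 13 were hosts, namely Setd5, Kdm2a, Kdm4a and Nsd2. Of the myogenic genes 1 of 9 was a host, Mef2d. None of the 6 myoblast markers with a WT-common region was a host.

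Within host genes the kept bases lay towards the 3′ end. Where RefSeq gave the strand, 74.4% of kept bases were in the 3′ 50% of the gene, against 66.8% of the WT-common bases of the same genes. With the gene cut into 10 equal parts, part 1 held 0.558% of kept bases and 2.22% of WT-common bases, part 9 held 17.9% and 14.7%, and part 10 held 14.5% and 14.9%.

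**Figure D2:**
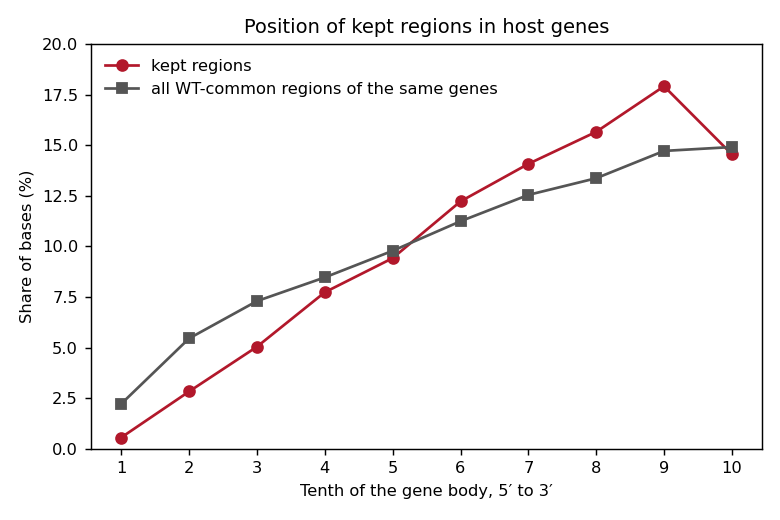
Share of bases (y axis, percent) in 10 equal parts of the host gene from 5′ to 3′ (x axis), for kept regions (red circles) and for all WT-common regions of the same genes (grey squares). The kept bases run from 0.558% in part 1 to 17.9% in part 9.

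At day 5, in lists that the rule did not use, nearly all kept regions were again inside KO_1 peaks in control medium. A region was called present where peaks covered at least 50% of it. In KO_1_D5_CTL 2942 kept regions (95.2%) were present, beside 31.9% of all WT-common regions. In KO_1_D5_MR 2506 (81.1%) were present, beside 11.4%. Kept regions are pieces of WT-common regions, so in all such pairs of shares the 50% limit applies to unlike lengths. By bases, KO_1 peaks covered 95.6% of kept and 44.0% of WT-common regions in D5_CTL. In D5_MR they covered 84.1% and 19.2%. Both WT_D5_CTL libraries held 98.1% of kept regions, beside 86.7% of WT-common regions, and both WT_D5_MR libraries held 88.9%, beside 72.5%. A peak gained or lost may mean fewer marked cells or less mark per cell, which cannot be told apart here. With the KO_1 D5 lists shortened by fold enrichment to the covered length of KO_1_D0, 71.1% and 60.1% of kept regions were present in D5_CTL and D5_MR, beside 6.73% and 4.81% of WT-common regions. KO_1 has 1 library per condition, so these shares carry no replicate error.

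Day 1 under restriction and KO_2 were different. In KO_1_D1_MR 11 kept regions were present, 0.356%, beside 0.0164% of WT-common regions, and 129 were touched by a peak at all (4.17%, beside 0.506%). By bases, peaks of that list covered 2.21% of kept and 0.132% of WT-common regions. The 11 regions included those of Col5a2, a fibrillar collagen chain, Axl, a receptor tyrosine kinase, Ybx3, an RNA-binding protein, and Usp38, which had 2. The Ybx3 region was also covered to 90.8% in KO_2_D0 and 89.2% in KO_2_D1_CTL. Of the 11 regions, 5 (in Otud4, Usp38, Zfp330 and Vps35) lay in the chromosome 8 window of dense KO_1 peaks, which held 12.5% of the peaks of this list. That list is also the shortest of the line, and the part of list length in the low count was not tested. Both WT_D1_MR libraries held 86.7% of kept regions, beside 65.7% of WT-common regions. In KO_2 the kept regions present numbered 3 at D0 (0.0971%, beside 0.0140%), 2 in D1_CTL (0.0647%, beside 0.0117%), 0 in D1_MR, 6 in D5_CTL (0.194%, beside 0.0328%) and 3 in D5_MR (0.0971%, beside 0.0328%). A KO_2 peak of any library touched 36 kept regions (1.17%, beside 0.658%).

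**Figure D3:**
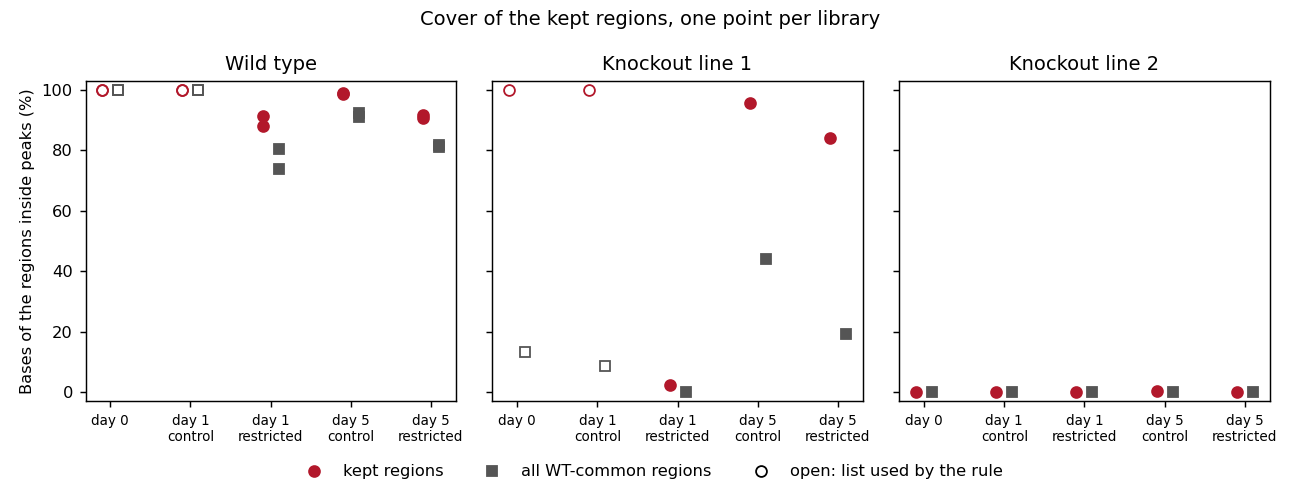
Percent of bases of the kept regions (red circles) and of all WT-common regions (grey squares) inside peaks (y axis) in each condition (x axis), 1 point per library, for WT, KO_1 and KO_2. Open symbols are lists the rule used. Kept regions are at 95.6% and 84.1% in KO_1 at D5_CTL and D5_MR and at 2.21% in D1_MR, and near 0% in KO_2.

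By presence in the KO_1 D5 lists, 2492 kept regions (80.6%) were in both, 450 in control only, 14 in restricted only and 134 (4.34%) in neither. The regions in neither list stood as high in WT as the others, with a median percentile of 97.3 against 98.0 for those in both, but were less often present at day 5 in WT too. Both WT_D5_CTL libraries held 74.6% of them against 99.3% of the regions present in both KO_1 lists, and both WT_D5_MR libraries held 52.2% against 89.8%. Only 18 kept regions (0.583%, beside 5.13% of WT-common regions) were absent from both WT_D5_CTL libraries, and their hosts by bases were led by Mcm3, Top2a, Kif11, Cxcl12, E2f7, Hmmr and Nrp2. The 2 regions each of Cxcl12 and Nrp2 were present in KO_1_D5_CTL, and those of the other hosts named were not.

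Cell cycle genes led the regions lost from KO_1 by day 5. Of the cell cycle list 11 genes were hosts, with 27 kept regions, of which 19 were in neither KO_1 D5 list, 7 were present in D5_CTL and 4 in D5_MR. Over all kept regions 4.34% were in neither list, and 95.2% and 81.1% were present in D5_CTL and D5_MR. Both WT_D5_CTL libraries held 17 of the 27 and both WT_D5_MR libraries 9, beside 98.1% and 88.9% of all kept regions. By bases in neither list, Top2a led with 5 regions and 23505 bp, then Cdk1 with 4 regions and 10156 bp and Mki67 with 4 regions and 7605 bp. Atad2, a chromatin ATPase, had 4 regions and 7598 bp. In a limma test of the percent of each gene body inside peaks, with p-values adjusted over all genes, 7 of the 11 hosts were lower and 2 higher in KO_1 than in WT at D5_CTL, and 2 lower and 5 higher relative to the median of each library. Over all 9267 genes tested 74.8% were lower, and 11.6% lower and 52.7% higher relative to the median, and over the 1291 host genes 47.9% were lower, and 2.17% lower and 83.7% higher relative to the median. The difference between the cell cycle hosts and other genes was not tested.

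Top2a had 96.9% and 95.8% of its body inside peaks in WT_D0, 75.0% and 64.4% in WT_D5_CTL and 12.9% and 22.7% in WT_D5_MR. In KO_1 it had 80.6% at D0, 85.7% in D1_CTL, 4.86% in D1_MR, 16.3% in D5_CTL and 3.51% in D5_MR. All WT libraries of D5_CTL were above those of D5_MR, and the KO_1 library was below both WT libraries in either medium. The difference between restricted and control WT at day 5 was -51.9 points (SE 4.31, adjusted p = 5.06e-05), and that between KO_1 and WT in D5_CTL -53.4 points (SE 5.41, adjusted p = 4.93e-05). Taking values relative to the median of all genes in each library adds 17.2 points to every difference between restricted and control WT at day 5, 44.6 points to every difference between KO_1 and WT in D5_CTL and 36.1 points in D5_MR. On that scale the second difference of Top2a was -8.7 points (adjusted p = 0.16). In D5_MR its KO_1 difference was -14.3 points as deposited (adjusted p = 0.0388), did not pass without WT_D5_MR replicate 2 (-9.44 points, adjusted p = 0.159) and turned to 21.8 points relative to the median (adjusted p = 0.00397), so its direction there depends on the scale. Cdk1 had 78.2% and 70.8% in WT_D5_CTL, 10.7% and 25.2% in WT_D5_MR, 4.06% in KO_1_D5_CTL and 19.4% in KO_1_D5_MR. Its WT restriction difference was -56.5 points (SE 5.05, adjusted p = 7.11e-05), and its KO_1 difference in D5_CTL -70.4 points (SE 6.25, adjusted p = 2.49e-05; relative to the median -25.8 points, adjusted p = 0.00266).

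Mcm3, a subunit of the replicative helicase, went the other way in WT. It had 20.6% and 19.1% in WT_D5_CTL and 75.7% and 68.1% in WT_D5_MR, a difference of 52.1 points (SE 3.30, adjusted p = 1.53e-05), or 30.8 points with peaks of −log10 q of at least 3. In KO_1 it had 35.1% at D0, 20.2% in D1_CTL and 0% in both D5 lists. Its helicase partner Mcm6 had 55.4% and 48.4% in WT_D5_CTL and 80.6% and 81.2% in WT_D5_MR, and 65.2% and 31.0% in KO_1_D5_CTL and KO_1_D5_MR.

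Genes of sterol synthesis and uptake were also low in KO_1 at day 5; this list was drawn up after their values had been seen. Of 18 such genes with a WT-common region 13 were hosts, with 47 kept regions, of which 33 (70.2%) were present in KO_1_D5_CTL and 13 (27.7%) in KO_1_D5_MR, beside 95.2% and 81.1% of all kept regions. All 13 were lower in KO_1 than in WT in D5_CTL (median -52.7 points), beside 74.8% of the 9267 genes tested (median -28.2 points). Relative to each library's median, 5 were lower and 1 higher, beside 11.6% lower and 52.7% higher over all genes. Both WT_D5_CTL libraries held all 47 regions and both WT_D5_MR libraries 41.

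Fdps, which makes farnesyl diphosphate, had 90.9% and 91.2% of its body inside peaks in WT_D5_CTL, 54.2% and 48.8% in WT_D5_MR, and 0% in both KO_1 D5 lists after 38.0% at KO_1_D0. Cyp51, the lanosterol demethylase, had 92.8% and 93.1% in WT_D5_CTL, 83.5% and 82.6% in WT_D5_MR, 8.02% in KO_1_D5_CTL and 0% in KO_1_D5_MR. The KO_1 difference in D5_CTL was -91.0 points for Fdps (SE 3.90, adjusted p = 1.43e-06) and -84.9 points for Cyp51 (SE 4.02, adjusted p = 2.18e-06). Relative to the median of each library these were -46.4 and -40.3 points, and both passed the test. KO_1 lay below every WT day 5 library for both genes. Cdc25b, an activator of Cdk1, and Acat2, an acetyl-CoA acetyltransferase, were also among the 5 largest decreases, at -76.9 and -74.2 points (-32.3 and -29.5 points relative to the median).

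Across all 9267 genes tested, restriction at day 5 lowered cover in WT for 42.0% and raised it for 3.88% (limma, adjusted over all genes; median -9.35 points). Of the 1291 host genes tested, 819 were lower and 14 higher, with a median of -15.7 points. The 14 became 27 with peaks of −log10 q of at least 3, and 7, 9, 6 and 6 without WT_D5_CTL replicate 1, WT_D5_CTL replicate 2, WT_D5_MR replicate 1 and WT_D5_MR replicate 2. Relative to each library's median the direction turned over all genes, with 14.3% lower and 40.6% higher, and the host genes split into 329 lower and 368 higher. The 5 largest decreases among host genes were Btg1, an antiproliferative gene, Snai1, a transcription factor of mesenchymal cells, Tpi1, a glycolytic enzyme, Cnn3, an actin-binding calponin, and Lgals1, the gene of galectin-1. Btg1 had 80.1% and 86.1% in WT_D5_CTL, and 0% and 6.26% in WT_D5_MR, a difference of -80.0 points (SE 4.74, adjusted p = 1.22e-05). Snai1 had 86.7% and 86.3%, and 19.5% and 0% (-76.7 points, SE 6.20, adjusted p = 4.42e-05). For both genes the WT libraries of the 2 media did not overlap.

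The largest increases on cover as deposited were in Mcm3, Mcm6, Pdk4, Gcfc2 and Ddx18, at 52.1, 29.0, 26.6, 19.5 and 17.2 points. Their order depended on the peak threshold, since with peaks of −log10 q of at least 3 Mcm6 had 63.0 points, Ddx18 55.3 and Mcm3 30.8. Gcfc2 did not pass the test without WT_D5_CTL replicate 1 (adjusted p = 0.103), WT_D5_MR replicate 1 (0.0703) or WT_D5_MR replicate 2 (0.0777). Pdk4, a kinase that inhibits pyruvate dehydrogenase, had 37.8% and 30.4% in WT_D5_CTL and 61.4% and 60.2% in WT_D5_MR. Its difference was 26.6 points (SE 4.72, adjusted p = 0.00223), and with peaks of −log10 q of at least 3 it did not pass the test (30.7 points, adjusted p = 0.24).

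Compared with WT in control medium at day 5, KO_1 was lower in 74.8% of all genes and higher in 1.68%. Among host genes 619 were lower and 44 higher, with a median of -10.9 points against -28.2 over all genes. Relative to each library's median the direction turned, with 11.6% of all genes lower and 52.7% higher, and 28 host genes lower and 1081 higher. Under restriction, KO_1 was lower in 69.1% of all genes and higher in 5.86%. Among host genes 666 were lower and 274 higher, and 260 and 766 relative to each library's median (25.4% lower and 43.9% higher over all genes), while 152 were higher with peaks of −log10 q of at least 3. The lone KO_1 library is assumed to vary as the WT groups do, and these tests compare that library with WT.

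On cover as deposited, the gene lists differed in how many hosts were higher or lower in KO_1 than in WT under restriction, and are read beside 21.2% higher and 51.6% lower over all host genes. Of the extracellular matrix hosts 12 of 19 were higher and 3 lower (median 18.6 points), of glycolytic hosts 7 of 8 higher and 0 lower (median 33.9 points), of actin and cytoskeleton hosts 16 of 36 higher and 7 lower, and of ribosomal protein hosts 14 of 33 higher and 4 lower. Of 19 cytosolic chaperones 12 were lower and 2 higher, of 12 secretory pathway chaperones 8 and 2, and of 4 H3K36 enzymes 4 and 0. Splicing factors, with 11 lower and 4 higher of 28, and translation factors, with 9 and 4 of 19, had no larger share lower than all host genes. Relative to the median of each library these 5 lists had 1 lower and 11 higher, 3 and 5, 2 and 0, 0 and 21, and 1 and 16. Over all host genes 20.1% were lower and 59.3% higher on that scale. The opposed directions of these lists therefore hold only for cover as deposited. Of the H3K36 enzymes, Kdm4a and Nsd2 stayed lower, while Setd5 and Kdm2a were 8.74 and 11.6 points above WT and did not pass the test. In control medium the matrix, glycolytic, actin and ribosomal protein lists had 1, 0, 1 and 3 higher and 7, 0, 17 and 1 lower. Relative to the median of each library, 17, 8, 32 and 33 were higher and 0 lower in control medium, beside 83.7% higher and 2.17% lower over all host genes, and 16, 8, 31 and 30 were higher under restriction. The difference between media within KO_1 was not tested, since each has 1 library.

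Nfix, a transcription factor, had 81.7% and 80.0% of its body inside peaks in WT_D5_CTL and at most 18.2% in both WT_D5_MR libraries, and 86.8% and 90.7% in KO_1_D5_CTL and KO_1_D5_MR. Under restriction KO_1 was 72.7 points above WT (SE 5.04, adjusted p = 4.08e-06), and Nfix lies in the chromosome 8 window described below. Myh9 had 96.5% and 95.3%, then 46.2% and 45.2%, in WT, and 91.7% and 88.4% in KO_1 (42.8 points above WT under restriction, SE 2.64, adjusted p = 2.15e-06). Eno1, the glycolytic enolase, had 61.8% and 65.3% in WT_D5_MR and 94.2% in KO_1_D5_MR (30.6 points, SE 2.41, adjusted p = 8.01e-06). Fn1 had over its body 94.6% and 95.1% in WT_D5_MR and 97.4% in KO_1_D5_MR, a difference of 2.56 points (adjusted p = 0.13; relative to the median 38.6 points, adjusted p = 6.45e-06). Under restriction KO_1 was above both WT libraries for each of these 4 genes, but more host genes were lower than higher.

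The 5 largest differences between KO_1 and WT under restriction in the downward direction were in Wdr3, a ribosome biogenesis factor, Acly, the ATP citrate lyase, Nup160, a nuclear pore subunit, Washc5, a subunit of the endosomal WASH complex, and Dis3, an exosome ribonuclease. Wdr3 had 91.2% and 93.0% of its body inside peaks in WT_D5_MR and 1.42% in KO_1_D5_MR (-90.7 points, SE 5.89, adjusted p = 3.13e-06). Acly had 91.7% and 90.7% in WT_D5_MR and 0.651% in KO_1_D5_MR (-90.5 points, SE 2.64, adjusted p = 1.21e-07). KO_1_D5_MR lay below both WT libraries for each of the 5 genes. Nup160, Washc5 and Dis3 were at -89.5, -89.3 and -89.0 points, and relative to the median the 5 differences ran from -54.6 to -52.9 points. In control medium KO_1 had 57.4% over Wdr3 and 39.7% over Acly.

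Region by region, differences ran both ways. Of the kept regions, 188 (6.08%) were absent from both WT_D5_MR libraries, beside 15.9% of WT-common regions, and 137 of the 188 (72.9%) were present in KO_1_D5_MR, against 18.8% of the WT-common regions that WT had lost. This is below the 81.1% present over all kept regions. In the other direction, 2747 kept regions were present in both WT_D5_MR lists, and 501 of them (18.2%) were absent from KO_1_D5_MR, against 90.4% of the WT-common regions present in both. Choosing regions by their absence or presence in WT fixes the direction of each of these counts. By bases, the leading protein-coding hosts of the 137 were Nfix with 11 regions, Nrp2, a semaphorin and VEGF coreceptor, with 8, Tns3, a focal adhesion protein, with 5, S100a10, a calcium-binding protein family member, with 1, and Pdgfrb, a growth factor receptor, with 4.

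Cxcl12, encoding the chemokine that binds Cxcr4, was covered more in KO_1 than in WT in both media at day 5. It had 3.29% and 2.90% in WT_D5_CTL, 7.94% and 15.2% in WT_D5_MR, 67.5% in KO_1_D5_CTL and 86.1% in KO_1_D5_MR. KO_1 was 64.4 points above WT in control medium (SE 4.56, adjusted p = 9.01e-06) and 74.5 points above under restriction (SE 4.56, adjusted p = 2.06e-06). At day 0 it had 54.0% and 54.2% in WT and 65.0% in KO_1, in lists that the rule used. N4bp1, Ly6e, Gdnf and Tnfrsf1b followed in control medium, at 58.1, 55.9, 48.1 and 46.6 points (Gdnf 16.8 points with peaks of −log10 q of at least 3), and N4bp1 lies in the chromosome 8 window of dense KO_1 peaks. Ly6e was also covered in KO_2, to 43.8% in D5_CTL and 35.1% in D5_MR, against 40.6% and 38.3% in WT_D5_CTL.

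Among the methionine cycle hosts, Mat2a, which makes S-adenosylmethionine, had 87.7% and 85.7% in WT_D5_CTL, 73.6% and 71.0% in WT_D5_MR, 86.3% in KO_1_D5_CTL and 82.3% in KO_1_D5_MR, and no difference passed the test on cover as deposited. Relative to the median of each library KO_1 was 44.2 points (adjusted p = 8.53e-05) and 46.1 points (adjusted p = 6.28e-05) above WT in control and restricted medium. Mtr, methionine synthase, had 80.9% and 76.1% in WT_D5_CTL, 87.2% and 88.4% in WT_D5_MR, 30.2% in KO_1_D5_CTL and 12.2% in KO_1_D5_MR. Its KO_1 difference was -48.3 points in control medium (SE 5.89, adjusted p = 0.000127; relative to the median -3.70 points, adjusted p = 0.44) and -75.7 points under restriction (SE 5.89, adjusted p = 8.19e-06). Kdm4a, an H3K36 and H3K9 demethylase, was at 86.8% and 85.9% in WT_D5_MR and 13.1% in KO_1_D5_MR (-73.2 points, SE 3.20, adjusted p = 4.27e-07).

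**Figure D4:**
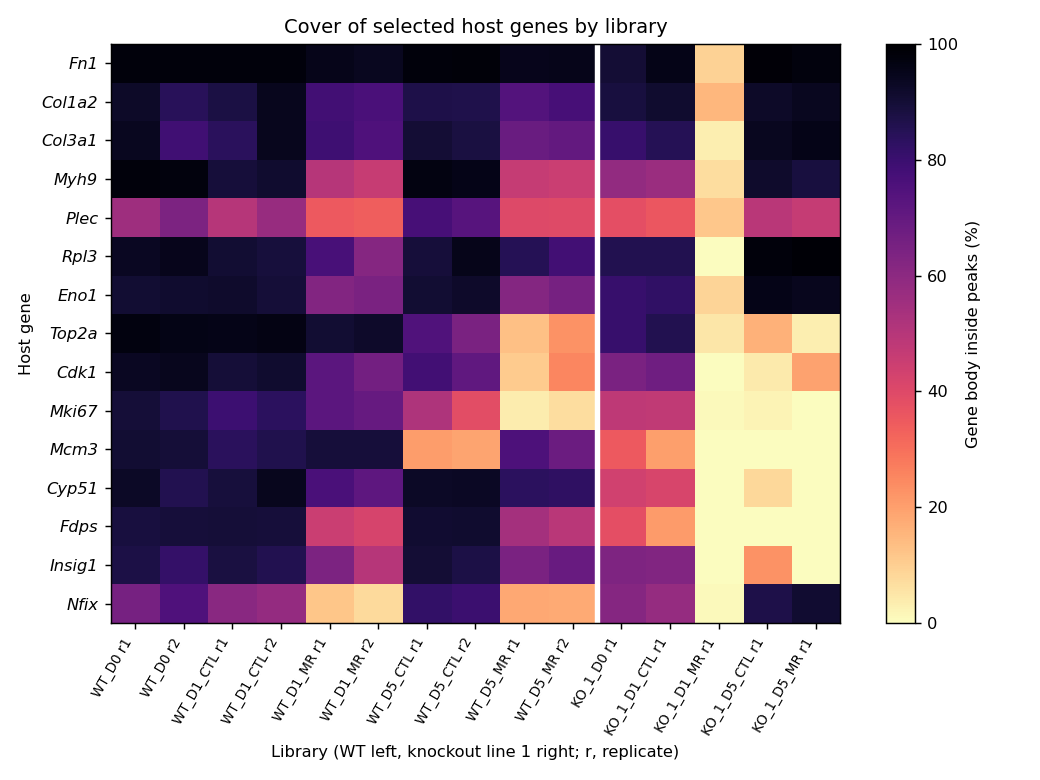
Percent of the gene body inside peaks (colour) for selected host genes (rows) in the 10 WT and 5 KO_1 libraries (columns; r, replicate). Matrix, glycolytic and ribosomal protein genes are dark in both KO_1 D5 columns, while Top2a, Cdk1, Mki67, Mcm3, Cyp51, Fdps and Insig1 are pale there.

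Kept regions were unevenly spread along the chromosomes. In 185 windows of 5 Mb with at least 200 kb of WT-common bases, the median share kept was 3.51% (quartiles 1.83% and 6.52%), but 2 adjacent windows of chromosome 8 had 34.0% and 39.0%. The window with Fn1 followed at 21.3%. Across chromosome 8 from 79000001 to 89000000, chosen after its values had been seen, 141 kept regions (4.56%) lay beside 261 WT-common regions, and 35.4% of WT-common bases were kept against 4.20% elsewhere. Their median WT percentile was 80.8 against 98.0 for kept regions elsewhere, and the 10 Mb held 45 of the 146 kept regions under the 75th percentile. Hosts there included Nfix, with 22 kept regions, Smarca5, a chromatin remodeller, with 13, Vps35, an endosomal sorting gene, with 12, and Adcy7, an adenylate cyclase, with 10. KO_1_D0 had 765 peaks in this window and KO_1_D1_CTL 652, against 372 to 518 in the WT libraries and at most 3 in KO_2. These were 3.25% and 3.42% of those KO_1 lists, and 0.524% to 0.609% of the WT lists. The rule used those KO_1 lists. In the KO_1 D5 lists, which it did not use, the window held 891 peaks (1.38%) in D5_CTL and 924 (1.76%) in D5_MR. Copy number and the input library were not analysed here.

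**Figure D5:**
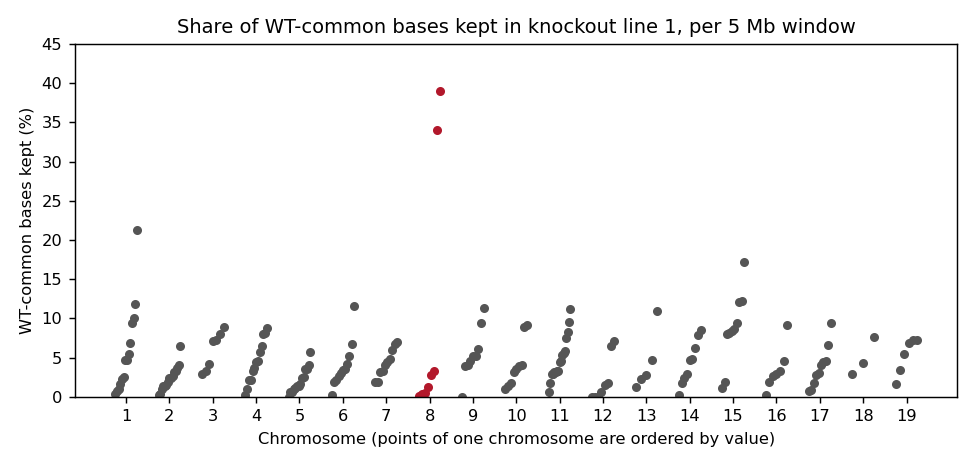
Share of WT-common bases kept in KO_1 (y axis, percent) in each 5 Mb window with at least 200 kb of WT-common bases, grouped by chromosome (x axis) and ordered by value within it. Chromosome 8 is in red, with 2 windows at 34.0% and 39.0%. The median over 185 windows is 3.51%.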

How the data were processed

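H3K36me3 ChIP-seq was done with a Drosophila chromatin spike-in and 75-nt single-end reads, per the labels' protocols. The genome build was GRCm38, per the submitters' processing notes; aligner, peak caller and any use of the spike-in are not given in the sources used here. The deposited broad peak lists, 1 per library, give each peak a score (not used), a fold enrichment ratio and −log10 p and q values made by the authors; read depth is unknown. Replicate libraries are not stated to be separate cultures, so p-values measure only the spread between them. The members and lists were chosen with earlier results of these data known.

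Peaks were merged per library and intersected base by base (Python 3.11.15, numpy 2.4.6, pandas 2.3.3; both steps were tested on simulated data). Percentiles rank fold enrichment within a list. Gene names and positions come from RefSeq (GRCm38.p6), with strand for 16456 of 20661 protein-coding genes. The percent of each gene body inside peaks was tested with limma 3.58.1 (R 4.3.3; trended, robust eBayes; Benjamini-Hochberg, adjusted p under 0.05) over protein-coding genes of at least 2 kb with a mean WT cover of at least 5%, and differences are in percentage points. Genes were named by kept bases overall and per list, and by the largest called differences; sterol genes, Mcm and chromosome 8 genes, and those of the restricted KO_1 contrast were added after their values were seen.

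Peak names inside the KO lists carry replicate numbers, and the sample labels were followed. The −log10 q threshold, minimum length, cover that counts as present, WT replicates, filters, centring and a replicate block were varied. Some genes are not reported here.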

Additional observations from a re-analysis of the deposited data

How the results depend on the processing

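The number of kept regions depended on the peak threshold, the minimum length and the KO_1 lists used. It was 600 with peaks of −log10 q of at least 3, 5739 at 250 bp, 1327 at 1000 bp, and, chosen after seeing the data, 8136 with KO_1_D0 alone and 5229 with KO_1_D1_CTL alone. Without each WT library in turn it was 3096 to 3112. In the same order, 96.5%, 92.7%, 97.3%, 86.7% and 90.8% were present in KO_1_D5_CTL, and 85.8%, 73.5%, 88.6%, 54.9% and 69.9% in KO_1_D5_MR. Without each WT library these were 95.2% and 81.0% to 81.1%. Present as any covered base gave 96.9% and 88.7%, full cover 89.6% and 59.2%, and shortened lists 71.1% and 60.1%. Without the chromosome 8 window, an alternative added later, 2949 regions were left, and the shares were 95.0% and 80.7%.

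Host genes higher under restriction in WT numbered 27 with −log10 q of at least 3, 8 without the cover filter, 368 after centring, and 7, 9, 6 and 6 without WT_D5_CTL replicate 1, WT_D5_CTL replicate 2, WT_D5_MR replicate 1 and WT_D5_MR replicate 2 (main count 14); those lower numbered 329 after centring and 599 to 697 without 1 library. For KO_1 against WT in control medium, 28 were lower and 1081 higher after centring, and 502 to 599 and 31 to 46 without 1 library. Under restriction 260 were lower and 766 higher after centring, 152 were higher with −log10 q of at least 3, and 623 to 664 and 232 to 269 without 1 library. The cause of these moves was not tested. Directions of change in these counts are therefore relative to the peak lists as deposited. Of the 44 gene contrasts tested by name, 14 lay outside the largest differences, and the rest were chosen for their size. The counts that follow therefore do not measure how stable other genes were. For the 44, 450 values under alternatives were computed. Of these, 433 kept direction and call, 10 lost the call, 3 gained it and 4 turned direction. The call was lost by Pdk4 at the stricter q, by Gcfc2 without WT_D5_CTL replicate 1 or either WT_D5_MR library, after centring by Top2a and Mtr in KO_1 in control medium, and by Top2a in KO_1 under restriction at the stricter q, without the cover filter, with the replicate block (-14.3 points, adjusted p = 0.0621) and without WT_D5_MR replicate 2 (-9.44 points, adjusted p = 0.159). It was gained by Fn1 and Mat2a in KO_1 under restriction after centring and by Mat2a in WT with only the 4 libraries compared. Direction turned for Top2a in KO_1 under restriction after centring (21.8 points), and for Mat2a after centring in WT (2.71 points) and in KO_1 in control medium (44.2 points), and there without 1 library, with -1.42 to 0.532 points.

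WT replicate numbers do not pair the libraries: correlations of replicate differences between groups ran from -0.439 to 0.0664. With the replicate block, 791 host genes were lower and 13 higher under restriction in WT, 609 and 43 in KO_1 in control medium, and 668 and 247 under restriction.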
